A study of Mus musculus with 6 samples.

Results

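Interferon ligands and receptors were taken as 9 genes by name from the table of gene counts of N9 microglia: the ligand genes Ifnb1, Ifna2, Ifna4 and Ifng, and the receptor genes Ifnar1, Ifnar2, Ifngr1, Ifngr2 and Ifnlr1. All 9 were found among the 54532 genes of the table. N9 is an immortalized microglial line derived from mouse brain, grown in RPMI medium with serum and antibiotics, and lipopolysaccharide (LPS) is an outer membrane component of gram-negative bacteria that is sensed by the receptor TLR4. RNA-seq was performed on 3 libraries of untreated control cells and 3 libraries of cells given LPS at 1 µg/ml for 6 h, and no other genotype, allele or agent is named for either group. The samples are of 1 cell line, and the labels do not say whether the 3 replicates of a group came from separate cultures, so that p-values measure the spread between these samples, which may be technical.

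Interferons are secreted proteins that alert cells to infection. Type I interferons (interferon beta and the interferon alphas) bind a receptor of the chains IFNAR1 and IFNAR2, interferon gamma binds a receptor of IFNGR1 and IFNGR2, and type III interferons (the lambdas) bind IFNLR1 together with IL10RB, a chain shared with the interleukin-10 receptor. These receptors work through the kinases JAK1, TYK2 and JAK2 and through STAT transcription factors, and in macrophages and microglia LPS can induce interferon beta through the adaptor TRIF and the factor IRF3. The question was whether any interferon transcript was counted at 6 h, beside the levels of the receptors.

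The libraries held between 16363767 and 17956772 counts, so that 3 counts, the limit that a count of 0 allows, were worth between 0.161 and 0.190 CPM, the unit of counts scaled to the size of the library. Most macrophage genes of the labelled cell type were well counted. Csf1r, the receptor for colony-stimulating factor 1, had 7140 to 8027 counts and Spi1, the myeloid factor PU.1, had 4804 to 7114 in a library. Aif1, a general marker of macrophages and microglia, had 4 to 9 counts. Of the genes that set microglia apart from other macrophages, Tmem119 had 142 to 177 counts, P2ry12 had 3 to 6, Sall1 had 1 count in 1 library and Siglech had none. Control replicates 2 and 3 stood apart by 256 and 442 summed counts of 9 hepatocyte markers, where the other libraries had 3 to 9, and control replicate 2 and LPS replicate 3 by 87 and 86 counts of 7 epithelial markers, where the others had 2 to 8. Of the 6 fibroblast markers, control replicates 1 and 3 and LPS replicate 1 had 128 to 201 summed counts and the other libraries 8 to 13.

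Transcripts of the listed interferon genes were at or near 0 in LPS-stimulated N9 microglia and in control cells alike. Of 21 interferon ligand genes listed by name, which are the 4 above and 17 others, 20 had no count in any of the 6 libraries. Genes outside this list were not searched for further interferons. The exception was Ifnb1, the gene of interferon beta, which had 0 counts in each control library, 1 count in LPS replicate 1, 1 count in LPS replicate 2 and 0 in LPS replicate 3. Both groups of Ifnb1 thus lie under the 3-count limit of a single library and overlap at 0, and no fold change is given. Summed over the group, Ifnb1 had 2 of 50329053 counts with LPS (exact Poisson 95% interval 0.242 to 7.22 counts), or 0.0397 CPM, and 0 of 51622807 in control cells, where the same interval reaches up to 3.69 counts or 0.0715 CPM. The intervals and the 3-count limit cover counting error only.

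Ifnb1 and the other ligands did not pass the filter on low counts, so none of the 4 ligand genes was tested in the fit over all genes. Without the filter, edgeR gave Ifnb1 a p of 0.226 (adjusted p = 0.507), and DESeq2 gave a p of 0.596 with no adjusted value. With at most 1 count in a library these tests could not have called Ifnb1, and a difference between LPS-stimulated and control cells was not detectable at this depth. Per length, 1 count of Ifnb1 was worth 0.0787 RPKM (CPM divided by the length of the gene in kilobases) on average, and 3 counts in 1 library between 0.215 and 0.254 RPKM, so that an Ifnb1 level below these values could not be told from none.

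Ifnb1 (ENSMUSG00000048806) lies on chr4:88522025-88522774 on the minus strand of GRCm38 and is a gene of 1 exon and 750 bases. It stands at one end of the interferon cluster, which by the listed genes spans chr4:88522025-88880201, or 358.2 kb, and holds 17 of those 21. Ifna2 (chr4:88682881-88683912, minus strand, 1032 bases) and Ifna4 (chr4:88841861-88842421, plus strand, 561 bases) are in the same cluster, are interferon alpha genes of 1 exon each, and had 0 counts in all 6 libraries. Ifng (chr10:118441046-118445892, plus strand) has up to 4 exons in a transcript and encodes interferon gamma, the product of activated T and NK cells above all. It too had 0 counts in each of the 6 libraries. The 17 further ligands, which are the other listed interferon alpha genes, Ifnab, Ifne, Ifnk, Ifnz and the lambda genes Ifnl2 and Ifnl3, were at 0 throughout.

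Reads that match several genes can be left out of a count table, and the interferon alphas are near-identical copies of each other. How such reads were treated is not given in the sources used here. In the GENCODE M21 transcripts, every window of 100 bases of Ifnb1 and Ifna4 was found in no other gene, as were 99.4% of those of Ifna2 and 92.0% of those of Ifng. Over all 21 ligands this share was lowest in Ifnz, at 37.8%, and was 90% or more in 16. With windows of 50 bases the share was 100% in Ifnb1, 93.6% in Ifna4, 87.8% in Ifna2 and 86.5% in Ifng, and it was lowest in Ifnz (23.1%) and Ifna1 (32.6%). The counts of Ifnb1, Ifna2, Ifna4 and Ifng thus cover genes that most reads of such lengths could identify, while those of ligands with more shared sequence are uncertain.

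Markers of the cells best known for making interferons were read in the same libraries. Of 13 T and NK cell markers, 7 had no count in any library, Cd3e, Cd8a and Ncr1 among them, and the list summed to between 2 and 16 counts in a library. Cd2, with 2 to 14 counts, was the 1 marker with more than 3 counts in some library. Plasmacytoid dendritic cells, known for interferon alpha, were represented by 9 markers, of which Siglech had 0 counts and Ly6d 1 count in 1 library, Ccr9 0 to 3, Klk1 0 to 7, Pacsin1 3 to 13 and Cox6a2 57 to 87. Bst2, Irf8 and Tcf4, which macrophages also express, made up most of the 3548 to 4606 counts of that list, and 6 of the 9 markers had more than 3 counts in some library.

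**Figure D1:**
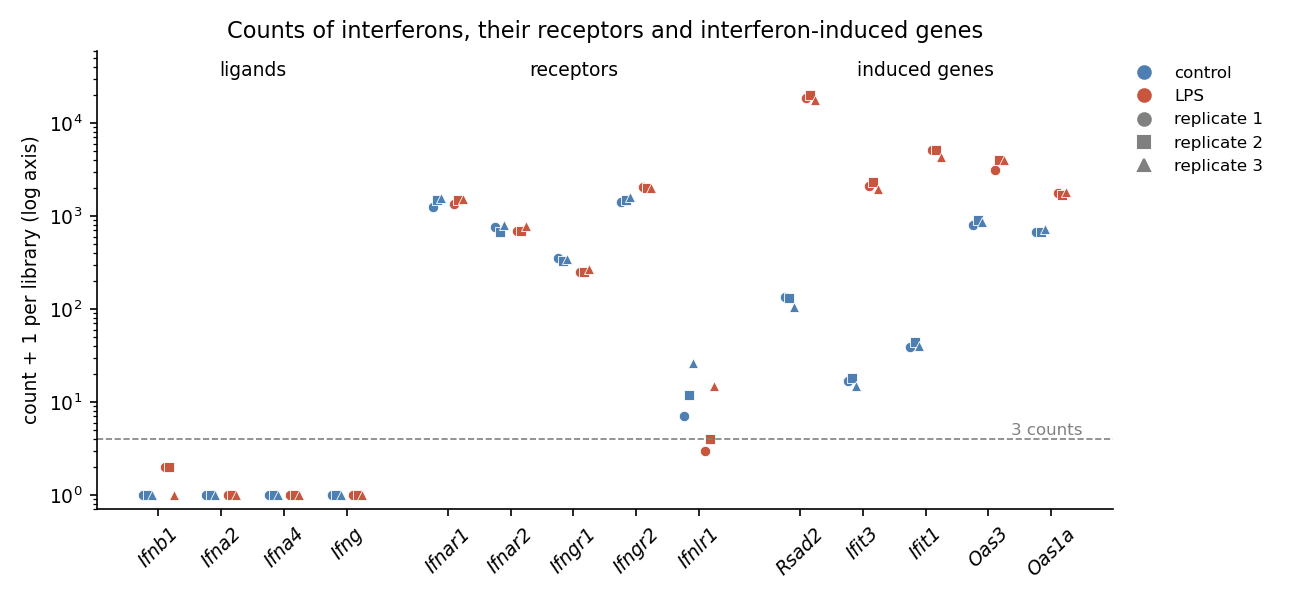
Counts per library, plotted as count + 1 on a log axis, of 4 interferon ligand genes, 5 receptor genes and 5 genes induced by type I interferon (the 3 with the highest and the 2 with the lowest log2FC of that list). Each point is 1 library and the dashed line marks 3 counts. The ligands lie at 0 or 1 count, the receptors other than Ifnlr1 between 248 and 2063, and Rsad2 with LPS between 17645 and 20008.

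Regulatory sequence of Ifnb1, Ifna4 and Ifngr2 is shown because the interferon enhancers are the known targets of the factors that LPS activates. Promoter windows, from 250 bases before to 50 after the start of the gene, came from RefSeq on GRCm38.p6 and were found for 9 of the 9 genes. Bases before the start are printed here on the strand of the gene. In Ifnb1 (chr4:88522795-88523044, minus strand) capitals mark the letters GGGANNTTC of an NF-kappa B site and AANNGAAA, the half-site of interferon regulatory factors. In Ifna4 (chr4:88841666-88841815, plus strand) they mark GAAANNGAA, which pairs such half-sites.
Ifnb1: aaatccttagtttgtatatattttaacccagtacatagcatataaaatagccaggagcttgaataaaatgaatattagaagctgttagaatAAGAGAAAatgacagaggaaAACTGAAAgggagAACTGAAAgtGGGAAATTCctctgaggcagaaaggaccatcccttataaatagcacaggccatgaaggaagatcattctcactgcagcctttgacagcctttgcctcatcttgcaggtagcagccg
Ifna4: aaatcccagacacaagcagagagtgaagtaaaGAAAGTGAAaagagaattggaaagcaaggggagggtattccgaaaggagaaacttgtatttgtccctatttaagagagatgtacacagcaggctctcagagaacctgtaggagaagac

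The Ifnb1 promoter held GGGAAATTC 116 bases before the start, and AANNGAAA 159, 139 and 126 bases before it. The half-sites at 139 and 126 bases and the NF-kappa B letters follow each other closely, as is known of the interferon beta enhancer, and 39.6% of the 250 bases were G or C. Ifna4 held GAAAGTGAA 118 bases before its start, shown above, and GAAACTGAA 208 bases before it, outside the printed bases. Ifna2 held GAAANNGAA as well, 239 and 164 bases before the start. All letters were searched on both strands, and AANNGAAA was added after the data were seen. In the 2 interferon alpha genes AANNGAAA overlaps GAAANNGAA, apart from the match 247 bases before the start of Ifna4.

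Among the 32851 promoter windows of the RefSeq table, 8.56% held GAAANNGAA, 3.94% held GGGANNTTC and 23.9% held AANNGAAA. GAAANNGAA was in 2 of the 9 genes (Ifna2 and Ifna4), GGGANNTTC in 2 (Ifnb1 and Ifngr2) and AANNGAAA in 4 (Ifnb1, Ifna2, Ifna4 and Ifng). TTCNNNGAA, the palindrome of STAT sites, was in 8.30% of all windows and in those of Ifng, Ifnar2 and Ifnar1, where it began 249, 214 and 5 bases before the start. A match is a description of the letters and shows no binding.

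Receptor transcripts were counted in every library, in contrast with their ligands. Each of the 5 receptor genes passed the filter and was tested with edgeR's quasi-likelihood test over 12296 genes, of which 34.3% were called at an adjusted p under 0.05. Of the 5, 2 were called: Ifngr2 was up-regulated and Ifngr1 was down-regulated after LPS stimulation, against 18.7% of all tested genes called higher and 15.7% called lower. None of the 5 was differentially expressed by the additional threshold of an absolute log2FC over 1.5, which 2.65% of tested genes passed. The libraries of the groups did not overlap in 2 of the 5, against 45.3% of all tested genes. The shares of receptors are thus near those of all genes, and nothing particular to receptors is read from these counts. In bulk RNA, fewer cells that carry a transcript and less of it per cell cannot be told apart.

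Ifngr2 encodes the signalling chain of the interferon gamma receptor, which brings JAK2. The counts were 1403, 1504 and 1609 in control replicates 1 to 3 and 2063, 1997 and 2018 in LPS replicates 1 to 3. The lowest LPS library was above the highest control library, at 125.1 ± 4.90 CPM (SD, n = 3) against 84.6 ± 2.40 CPM. The log2FC was 0.56 ± 0.05 (SE), a 1.48-fold rise (95% interval 1.38 to 1.59), with an adjusted p of 2.56e-07. Ifngr2 was called higher under all 14 alternatives tried, with a log2FC between 0.47 and 0.58.

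The Ifngr2 gene (ENSMUSG00000022965) lies on chr16:91547072-91565623, plus strand. Its promoter is printed to set beside that of Ifnb1, since both hold GGGANNTTC, while Ifngr2 had at least 1403 counts in a library and Ifnb1 at most 1. In Ifngr2 (chr16:91546859-91547058, plus strand) capitals mark the match, which lies on the reverse strand and reads GAAAGTCCC on the strand of the gene, 74 bases before the start.
Ifngr2: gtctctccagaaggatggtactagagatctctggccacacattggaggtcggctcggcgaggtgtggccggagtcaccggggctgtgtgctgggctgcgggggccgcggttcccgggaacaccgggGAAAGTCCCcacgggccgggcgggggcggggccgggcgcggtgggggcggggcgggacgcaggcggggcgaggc

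G and C made up 75% of these 200 bases of Ifngr2. Searched on the strand of the gene alone, GGGANNTTC was found in Ifnb1 and not in Ifngr2, and in 2.01% of all windows.

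Ifngr1 encodes the chain that binds interferon gamma and brings JAK1. Its counts were 353, 328 and 345 without LPS, falling to 251, 248 and 268 with it. The groups did not overlap, with 19.3 ± 1.17 CPM in control cells and 15.8 ± 0.607 CPM with LPS. The log2FC was -0.29 ± 0.09 (SE), a fold of 0.82 (95% interval 0.716 to 0.940), with an adjusted p of 0.0258. This call rests on a small difference: DESeq2 gave an adjusted p of 0.0781, and the call was lost without control replicate 1 (0.0781), without LPS replicate 1 (0.0510) or without LPS replicate 2 (0.0853). The log2FC was negative in each of the 14 alternatives, between -0.38 and -0.25. Ifngr1 (ENSMUSG00000020009, chr10:19591949-19610229, plus strand) is the receptor gene on the chromosome of Ifng, far from the other receptor chains.

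Because both chains of the interferon gamma receptor were read in the same library, their ratio does not depend on the scaling of libraries. Ifngr1 over Ifngr2, per length, was 0.333, 0.289 and 0.284 in control replicates 1 to 3 and 0.161, 0.164 and 0.176 in LPS replicates 1 to 3. All 3 LPS libraries lay under all 3 control libraries. The mean log2 ratio fell from -1.73 ± 0.13 (SD, n = 3) to -2.58 ± 0.07, a difference of -0.85 that stayed between -0.89 and -0.78 when each library was left out in turn. The exact two-sided permutation test gave p = 0.10, the smallest that 3 against 3 libraries can give (adjusted over the 3 ratios tested, p = 0.30). The ratio shows that the chains changed unequally and does not give the change of either.

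**Figure D2:**
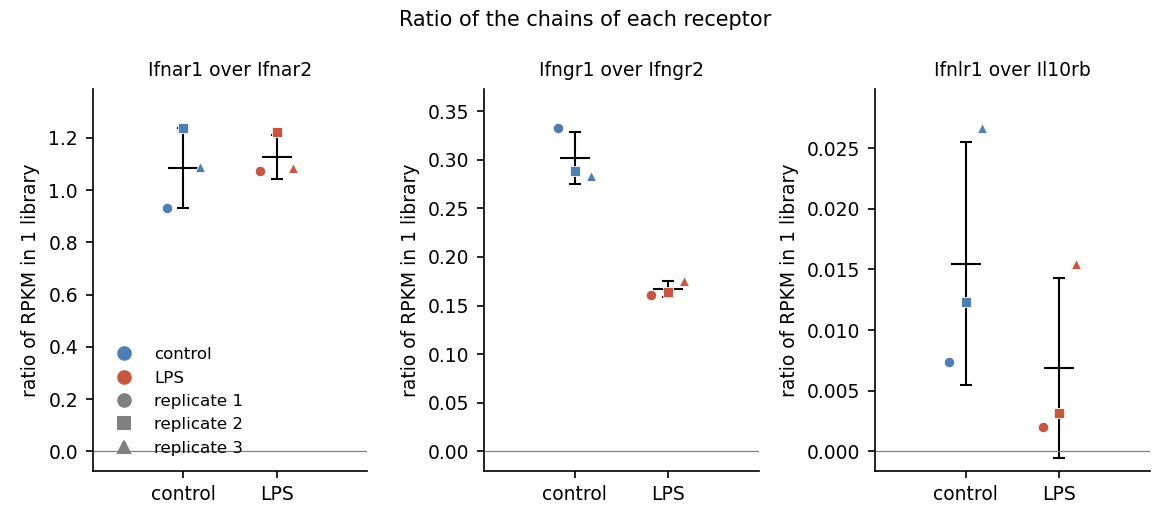
Ratio of the RPKM of the chains of each receptor in 1 library, for control and LPS. Each point is 1 library, and the bars are the mean and SD of 3 libraries. Ifngr1 over Ifngr2 lies between 0.284 and 0.333 in control cells and between 0.161 and 0.176 with LPS, and the groups overlap in the other 2 ratios.

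Ifnar1 encodes the chain of the type I receptor that brings TYK2, and its groups overlapped. Control libraries had 1265, 1498 and 1561 counts and LPS libraries 1335, 1504 and 1524. Control replicate 1 and LPS replicate 1 were the lowest of their groups. The levels were 80.9 ± 6.14 and 89.7 ± 4.45 CPM (SD, n = 3), and the log2FC of 0.15 ± 0.06 (SE, 95% interval 0.02 to 0.28) had an adjusted p of 0.0704. The value is close to the threshold, since a robust dispersion estimate gave an adjusted p of 0.0478 and leaving out LPS replicate 1 gave 0.0367. Blocking by replicate number gave 0.0190, though the replicate numbers do not pair the samples. Leaving out control replicate 1 lowered the log2FC to 0.077 (adjusted p = 0.317), and scaling by total counts lowered it to 0.050 (adjusted p = 0.544).

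Ifnar2 encodes the chain that binds type I interferon with the higher affinity and brings JAK1. It had 761, 678 and 805 counts in control cells and 697, 689 and 789 with LPS, so that the groups overlapped. Its log2FC of 0.09 ± 0.07 (SE, 95% interval -0.07 to 0.25) had an adjusted p of 0.385, and with libraries scaled by total counts alone it was -0.0086. With single libraries left out the log2FC ranged from 0.022 to 0.13, and Ifnar2 stayed uncalled. Relative to Ifnar2, Ifnar1 stood at 0.932, 1.24 and 1.09 per length in control replicates 1 to 3 and at 1.07, 1.22 and 1.08 with LPS. The difference of the mean log2 ratios was 0.06 (exact two-sided permutation p = 0.90), and it changed sign when control replicate 1 was left out (-0.045).

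Ifnlr1, the chain specific to the type III receptor, was the one receptor gene near the limit of counting. Control replicates 1 to 3 gave 6, 11 and 25 counts and LPS replicates 1 to 3 gave 2, 3 and 14. The libraries within each group differed more than the groups did, and both replicates numbered 3 were the highest of their group. The log2FC of -0.99 ± 0.65 (SE, 95% interval -2.39 to 0.41) had an adjusted p of 0.274. Single libraries decided this value: the log2FC was -0.33 without control replicate 3 and -2.28 without LPS replicate 3, where the adjusted p was 0.0476 and the 2 remaining LPS libraries were at or under 3 counts.

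Libraries that differed in Ifnlr1 also differed in markers of other cell types, and the marker lists were not high in the same libraries. LPS replicate 3, with 14 counts of Ifnlr1, had 86 summed counts of the 7 epithelial markers, and LPS replicates 1 and 2 had 2 and 6. Control replicate 3, with 25 counts of Ifnlr1, had 442 counts of the hepatocyte markers and 8 of the epithelial ones, while control replicate 2, with 11 counts of Ifnlr1, had 256 and 87. The fibroblast list summed to 201, 8 and 143 counts in control replicates 1 to 3. It summed to 128, 13 and 13 in LPS replicates 1 to 3, of which replicate 1 had the fewest counts of Ifnlr1. In CPM the epithelial list ranged from 0.430 to 4.93 in control cells and from 0.127 to 5.24 with LPS, and the hepatocyte list from 0.175 to 23.8 and from 0.305 to 0.548. Epcam, which marks epithelium, had 4 counts in control replicate 2, 5 in LPS replicate 3 and 0 elsewhere. Counts of Alb, which marks hepatocytes, were 155 in control replicate 2, 292 in control replicate 3 and 0 to 2 elsewhere. The part of such RNA in the counts of Ifnlr1 was not tested.

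**Figure D3:**
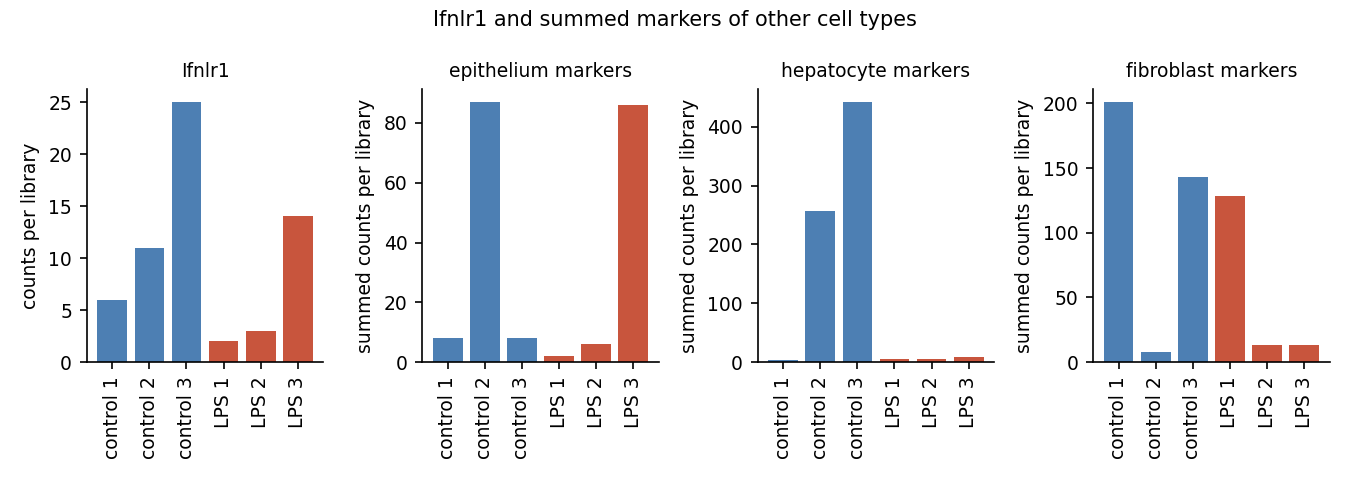
Bars give the counts of Ifnlr1 and the summed counts of 7 epithelial, 9 hepatocyte and 6 fibroblast markers in each of the 6 libraries. Ifnlr1 is highest in control replicate 3 (25 counts) and LPS replicate 3 (14 counts), and no marker list is high in just these 2 libraries.

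Il10rb, the partner of Ifnlr1 and no interferon receptor on its own, was well counted. It had 741, 812 and 853 counts in control cells and 892, 858 and 827 with LPS. Raw counts overlapped, but scaled for depth the groups did not, with 43.3 to 46.0 CPM in control cells and 50.4 to 56.5 CPM with LPS. Il10rb was called higher, with a log2FC of 0.24 ± 0.06 (SE) and an adjusted p of 0.0085, which total-count scaling raised to 0.0944. Ifnlr1 over Il10rb, per length, was 0.0074, 0.0123 and 0.0267 in control replicates 1 to 3 and 0.0020, 0.0032 and 0.0154 in LPS replicates 1 to 3. The groups overlapped, and the exact two-sided permutation p was 0.30. With Ifnlr1 at or under 3 counts in 2 LPS libraries, the difference of the mean log2 ratios (-1.53) depends on single libraries and ranged from -2.40 without LPS replicate 3 to -0.94 without LPS replicate 1.

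**Figure D4:**
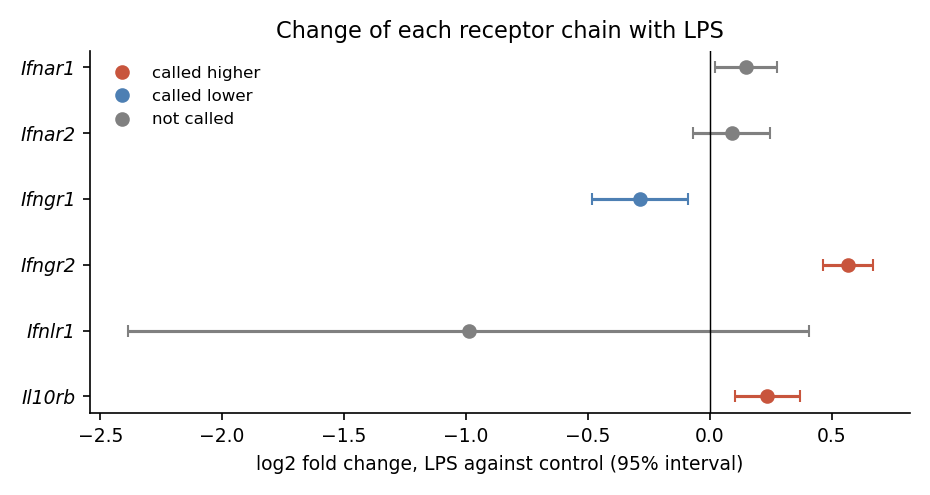
Points are the log2FC of the 5 receptor genes and Il10rb in LPS-stimulated versus control N9 microglia from edgeR, with the 95% interval of 3 against 3 libraries. The intervals of Ifngr2, Il10rb and Ifnar1, which was not called, lie to the right of 0 and that of Ifngr1 to the left, the interval of Ifnar2 includes 0, and the interval of Ifnlr1 reaches from -2.39 to 0.41.

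Per length, the receptor chains spanned a wide range, and the highest and the lowest chain were the same in both groups. This order rests on the annotated gene lengths as well as on the counts. In CPM, Ifngr2 (81.9 to 86.6, length 3767 bases) and Ifnar1 (73.8 to 84.9, length 5940 bases) overlapped in control cells. With LPS they did not, at 121.8 to 130.8 and 84.6 to 92.8 CPM. In control cells Ifngr2 was highest at 22.5 ± 0.638 RPKM (SD, n = 3), followed by Ifnar1 at 13.6 ± 1.03, Ifnar2 at 12.6 ± 0.957, Il10rb at 11.8 ± 0.410, Ifngr1 at 6.76 ± 0.412 and Ifnlr1 at 0.185 ± 0.123. With LPS the levels were 33.2 ± 1.30 RPKM for Ifngr2, 15.1 ± 0.748 for Ifnar1, 13.9 ± 0.829 for Il10rb, 13.4 ± 0.917 for Ifnar2, 5.54 ± 0.213 for Ifngr1 and 0.0926 ± 0.0965 for Ifnlr1. Neighbours among Ifnar1, Ifnar2 and Il10rb overlapped per length in their libraries in both groups. In control cells the lowest Ifnar1 library (12.4 RPKM) was nonetheless above the highest Il10rb library (12.1 RPKM). The overlap of Ifnar1 and Ifnar2 depends on the lengths (5940 and 3329 bases). In CPM, Ifnar1 stood at 80.9 in control cells and 89.7 with LPS, and Ifnar2 at 42.1 and 44.7. Per length, the other neighbours in the order did not overlap. Ifngr2 was 1.65 times the next chain in control cells and 2.20 times with LPS, and Ifngr1 was above Ifnlr1 in every library. The 2 LPS libraries with 1 count put Ifnb1 at 0.0845 and 0.0813 RPKM. In the same libraries Ifnlr1, at 2 and 3 counts, stood at 0.0303 and 0.0437 RPKM and Ifngr1, the next chain above it, at 5.59 and 5.31 RPKM. Counts this low do not order Ifnb1 and Ifnlr1.

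**Figure D5:**
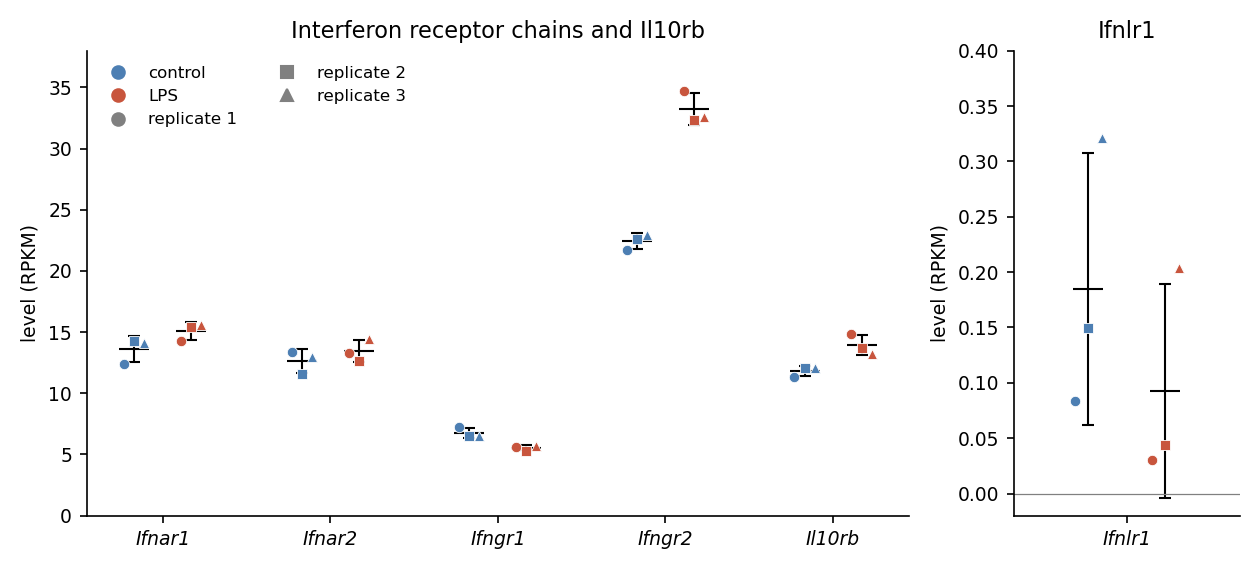
Level per length (RPKM) of 4 receptor chains and Il10rb, and of Ifnlr1 on an axis of its own, in 3 control and 3 LPS libraries. Each point is 1 library, and the bars are the mean and SD. Ifngr2 is the highest chain in both groups (22.5 and 33.2 RPKM on average), and its groups do not overlap.

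Several of these receptor genes are neighbours. Ifnar2 (chr16:91372783-91405589), Il10rb (chr16:91406164-91425834), Ifnar1 (chr16:91485238-91507441) and Ifngr2 lie in this order on the plus strand within 192.8 kb. Ifnlr1 (chr4:135686287-135708181, plus strand) is on the chromosome of the type I interferon cluster. The genes most like each receptor were found by the Euclidean distance of centred log2 CPM over the 6 libraries, among the 10458 tested genes whose mean count was 50 or more. They were Ptprs and Mrrf for Ifnar1, Syap1 and Ercc4 for Ifnar2, Klc4 for Ifngr1, and Cited2 and Dtwd1 for Ifngr2, all at distances between 0.0471 and 0.0617. For Ifnlr1 the nearest, Tcf7l2 and Fbxo48, were at 1.86 and 1.88. Genes counted as low as Ifnlr1 were not among those compared, so that these distances say little about it.

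The listed partners are kinases and transcription factors inside the cell and the related receptor chains Il10rb, Il10ra, Il20rb and Il22ra1. Of 10 genes, 9 were tested, 7 were called higher (Il10rb and Il20rb among them) and none lower, beside 18.7% and 15.7% of all tested genes, with a median log2FC of 0.92, against 0.0036 over all tested genes. Stat2 (log2FC 2.24 ± 0.09, SE), Irf9 (2.08 ± 0.07) and Il20rb (2.07 ± 0.18) were highest. The products of Stat2 and Irf9 are parts of the factor that acts downstream of the type I receptor, and IL20RB is a chain of the receptors of the interleukin-20 family. Stat2 went from 304, 387 and 317 counts in control libraries to 1333, 1607 and 1418 with LPS. The smallest called rises were those of the kinase gene Jak1 (0.22 ± 0.04) and Il10rb. Il22ra1, the interleukin-22 chain that pairs with IL10RB, had 0 counts in all libraries. This list and those that follow were chosen with earlier results of these data known. Their shares of called genes describe the lists and test nothing.

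Genes that lead from TLR4 to interferon beta were all expressed. All 19 listed genes were tested, of which 13 were called higher, 3 lower and 3 not, beside 18.7% higher and 15.7% lower over all tested genes, with a median log2FC of 0.40. Irf7, a factor that drives interferon alpha genes, had the highest log2FC, 3.97 ± 0.07 (SE), from 176, 154 and 159 counts to 2243, 2490 and 2241. Ikbke, a kinase of interferon regulatory factors, followed at 1.81 ± 0.06 and Nfkb1, an NF-kappa B subunit, at 1.36 ± 0.05. Tlr4 itself fell, by 0.52 on the log2 scale, from 1557, 1578 and 1572 counts to 933, 970 and 1084, and Irf8 by 0.41. Irf3, the factor best known for starting Ifnb1 transcription, had a log2FC of -0.04 ± 0.08 and was not called.

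Among 15 genes that restrain interferon receptors or govern their traffic, 4 were called higher, 3 lower and 8 not, with a median log2FC of 0.0040. These shares are near the 18.7% higher and 15.7% lower of all tested genes, so that nothing is read from the list as a whole, and the values of single genes follow. Isg15 (6.43 ± 0.10, SE), Usp18 (5.50 ± 0.11) and Socs1 (2.37 ± 0.36) rose most, of which Socs1, with 5, 8 and 6 counts in control libraries, passed the filter only through the LPS libraries and so had to differ. USP18 binds IFNAR2 and dampens type I signalling, and it went from 90, 70 and 58 counts to 3131, 3054 and 2831. The phosphatase gene Ptpn6 fell by 0.55 and Pias3, an inhibitor of STAT3, by 0.49 on the log2 scale.

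Genes known to be induced by type I interferon were high in the same LPS libraries in which each listed interferon gene had at most 1 count. All 20 listed genes were tested and all 20 were called higher, beside 18.7% of all tested genes, with a median log2FC of 5.32 (0.0036 over all tested genes), or 4.89 with Ifi44, whose control libraries had at most 3 counts, set at its bound. The list was chosen with earlier results of these data known, and the study reports Rsad2, Ifit3 and Ifit1 among its most up-regulated genes. The share called thus describes the list and tests nothing. Ifi44, Mx1 and Mx2, with at most 10 counts in any control library, passed the filter on low counts only through the LPS libraries and so had to differ. Rsad2, which encodes the antiviral protein viperin, went from 134, 129 and 103 counts to 18720, 20008 and 17645, a log2FC of 7.40 ± 0.09 (SE). Ifit3 and Ifit1, antiviral RNA-binding proteins, had log2FC values of 7.21 ± 0.11 and 7.07 ± 0.11. The smallest rises of the list were those of Oas3 (2.24 ± 0.07) and Oas1a (1.48 ± 0.05), which encode enzymes that make the activator of RNase L. Many of these genes are known to be induced by IRF3 and NF-kappa B as well as by interferon, and these counts do not tell the routes apart.

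Genes best known from interferon gamma were split by level. Of 15 listed, 9 were tested, 8 were called higher and none lower, beside 18.7% and 15.7% of all tested genes, with a median log2FC of 3.18 (0.0036 over all tested genes). Iigp1 and Socs1, with at most 8 counts in any control library, passed the filter only through the LPS libraries and so had to differ, and of the other 7 tested genes 6 were called higher. Gbp2, a guanylate-binding protein, rose by 5.66 ± 0.15 (SE) and Irgm2, an immunity-related GTPase, by 3.64 ± 0.11, both as log2FC. Iigp1, with 0, 2 and 3 counts in control libraries and 21, 23 and 39 with LPS, was at least 10.1-fold higher, set against 3 counts in each control library. Irf1 (1.30 ± 0.10) and Cd74 (0.44 ± 0.04) had the smallest called rises. The 6 genes that the filter left out, named here after their values were seen, include Ciita, the master regulator of MHC class II, which had 0 counts in control libraries and 1, 3 and 3 with LPS, and the chemokine gene Cxcl9, with 3 counts in LPS replicate 2 alone. H2-Aa, H2-Ab1 and Ido1 had at most 3 counts in any library, and Gbp4 had 7, 6 and 9 with LPS against at most 1 in control cells. Irf1, Irf7, Isg15, Socs1 and Usp18 each stand in 2 of these lists.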

How the data were processed

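RNA-seq libraries of 3 control and 3 LPS samples of N9 microglia were prepared and sequenced by Novogene. Raw read counts of 54532 genes in the 6 libraries, whole numbers that were not normalized, were deposited by the authors, and the submitters' processing notes name featureCounts 1.5.0-p3 and mm10 (GRCm38). The aligner and the use of strand and of multiply mapped reads are not given in the sources used here. A second deposited table holds the authors' own comparison (log2 fold changes and p-values from DESeq2 1.20.0 by the methods), and was not used here.

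The 9 genes and all lists were chosen with earlier results of these data known. Groups were taken from the sample titles. Counts were analysed with edgeR 4.0.16 under R 4.3.3: TMM normalization, the filter filterByExpr by group (12296 genes kept), a prior count of 0.125, quasi-likelihood F tests comparing 3 LPS with 3 control libraries and no replicate term, and Benjamini-Hochberg adjustment over all genes tested. Genes were called at an adjusted p under 0.05, and differentially expressed with an absolute log2FC over 1.5 as well. The SE is the log2FC divided by the square root of F. CPM and RPKM were computed from the counts with the gene lengths of the deposited table. Totals of 16363767 to 17956772 counts set the precision, and without molecular identifiers the limits cover counting error only. Ratios of receptor chains were tested with exact permutation tests (scipy 1.17.1, Python 3.11.15).

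Genes named are the 9 genes and Il10rb, any other interferon ligand with a count, the 3 called genes with the highest and the 2 with the lowest log2FC of each list, and the 2 genes most like each receptor. One gene named by this rule is not reported here. In a list with fewer than 2 genes called lower, the 2 smallest called changes were taken. Others are named as examples after their values were seen. Replicates of a group differed by more than sampling noise (chi-square per degree of freedom 3.55 to 7.71). Alternatives were DESeq2 1.42.0, RLE size factors, no filter, a filter at a mean of 10 counts, robust dispersion, a prior count of 2, blocking by replicate number, leaving out each library and, added after seeing the data, scaling by total counts.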

Additional observations from a re-analysis of the deposited data

How the results depend on the processing

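The count of genes called over the whole table (4221, of which 2294 higher and 1927 lower) and that of differentially expressed genes (326) stayed within 1.5 times under all 14 alternatives, at 3379 to 4862 and 305 to 469. Scaling by total counts, added after seeing the data, turned the split to 1520 higher and 3342 lower with a shift of the median log2FC of -0.0983; under it the log2FC of Ifnar1 was 0.050 (adjusted p = 0.544), that of Ifnar2 changed sign (-0.0086) and Il10rb was not called (0.14, adjusted p = 0.0944). The number of receptor genes called, 2, became 1 with DESeq2 and between 1 and 3 when single libraries were left out. Ifngr2 kept its call throughout. Ifngr1 lost it with DESeq2 (log2FC -0.29) and ranged from -0.32 to -0.25 with single libraries left out (adjusted p 0.0353 to 0.0853). Ifnar1 passed with robust dispersion (log2FC 0.15, adjusted p = 0.0478) and ranged from 0.077 to 0.19 with libraries left out. Ifnlr1 ranged from -2.28 to -0.33. The difference of Ifnar1 over Ifnar2 ranged from -0.045 to 0.16 in log2. GGGANNTTC was in 1 of the 9 promoters on the strand of the gene alone, in place of 2. DESeq2 left each list's count of called genes within 1.5 times. The cause of these changes was not tested.

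The replicate numbers do not pair the samples: the deviations of same-numbered libraries correlated at 0.147, 0.0747 and -0.0118, and only number 1 correlated best with its own. With the replicate block, 4474 genes were called, 3 receptor genes among them, and Ifnar1 passed with a log2FC of 0.15 (adjusted p = 0.0190).

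Depth limits the interferon ligands and Ifnlr1: a level worth 3 counts or fewer in a library could not be told from none. With 3 libraries a group, an exact permutation test cannot go below 0.10. A single time, 6 h, and a single cell line were sampled. Ifngas1, an antisense neighbour of Ifng named after its value was seen, had 1 count in LPS replicate 1.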
